A study of Mus musculus with 15 samples.

Results

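The genes described here encode cytochrome P450 enzymes outside the classical sex steroid P450 genes, together with the 3beta-, 11beta- and 17beta-hydroxysteroid dehydrogenases, the cytosolic sulfotransferases and the UDP-glucuronosyltransferases. They were chosen by gene symbol (*Cyp*, *Hsd3b*, *Hsd11b*, *Hsd17b*, *Sult* and *Ugt* genes, without *Cyp11a1*, *Cyp17a1* and *Cyp19a1*). Of the 12254 genes with a named probe on the array, 83 belonged to them, with 117 of the 15294 named probes. Where a gene had several probes, the probe with the highest mean ovary signal stood for the gene. The 83 genes comprised 48 *Cyp*, 4 *Hsd3b*, 1 *Hsd11b*, 11 *Hsd17b*, 11 *Sult* and 8 *Ugt* genes. *Hsd11b2*, *Cyp11b1*, *Cyp26c1* and *Cyp51* had no named probe.

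*Foxl2* encodes a forkhead transcription factor of the supporting cells of the ovary, and the study compared ovaries with 0, 1 or 2 intact copies of it. Ovary RNA from *Foxl2*-null, heterozygous (*Foxl2*+/-) and wild-type mice was hybridized to 15 two-colour arrays, 9 from newborn mice (3 for each genotype) and 6 from mice at 7 days postnatum (7 dpn, 2 for each genotype). All mice were of a mixed 129S6/SvEvTac and NIH-Swiss/BC background, without any other allele or agent named in the labels. The newborn RNA came from individual mice and the 7 dpn RNA from pools of several mice, so that a 7 dpn value is already an average over animals. On every array the ovary RNA carried Cy3 and a universal mouse reference, RNA pooled from cell lines, carried Cy5. The value of a gene is the log2 ratio of ovary over reference signal. A value near 0 means equal signals of both RNAs on that probe, and says nothing about how abundant the transcript was. Since whole ovaries were used, fewer cells of a type and less RNA per cell cannot be told apart.

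Steroid hormones are made from cholesterol in a chain of steps. The side chain is cleaved by the *Cyp11a1* product, the 3beta-hydroxysteroid dehydrogenases convert pregnenolone to progesterone, the *Cyp17a1* product forms androgens, the 17beta-hydroxysteroid dehydrogenases interconvert weak and strong androgens and estrogens, and the *Cyp19a1* product (aromatase) forms estrogens. In the ovary these steps are divided between theca cells and granulosa cells. The remaining P450 enzymes oxidize sterols, retinoids, fatty acids and foreign compounds, and the sulfotransferases and glucuronosyltransferases attach sulfate or glucuronic acid to steroids, bile acids, phenols and drugs, most of them being best known from the liver.

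Some arrays stood apart before any gene was considered. Newborn wild-type array 1 correlated over all probes with the other arrays of its group at r from 0.895 to 0.911, but with the 7 dpn wild-type arrays at 0.924 to 0.935 and with the 7 dpn heterozygous arrays at 0.935 to 0.940. With the newborn heterozygous arrays it correlated at 0.924 to 0.943, with the newborn null arrays at 0.916 to 0.919 and with the 7 dpn null arrays at 0.912 to 0.922. Of the 15 arrays, 12 were closest on average to their own group. The other exceptions were newborn null array 3, closest to the newborn heterozygous arrays (mean r 0.9442, against 0.9439 in its own group), and 7 dpn wild-type array 1, closest to the 7 dpn heterozygous arrays (0.949 against 0.940). On newborn wild-type array 1 the mean log2 ratio of 7 fat cell markers was 2.03, against 0.30 and 0.24 on the other newborn wild-type arrays, 0.10 to 0.29 on the newborn mutant arrays and 1.62 to 2.13 at 7 dpn. The granulosa cell markers (1.36 against 0.76 and 0.96) and the theca cell markers (0.80 against 0.21 and 0.25) were higher on it too. Its smooth muscle markers averaged -0.31, against -0.01 and -0.28 on the other newborn wild-type arrays and 0.61 to 1.23 at 7 dpn. The array thus correlated less with its own group than with any other. Its fat cell markers were at the 7 dpn level, but its smooth muscle markers were at the newborn level. The label was kept, whether it is right was not tested, and the results that use newborn wild-type arrays are given below without this array as well. The *Foxl2* probe itself lay between -0.36 and -0.20 on all 15 arrays in every genotype, and so did not check the labels. Oocyte markers averaged 3.02 to 3.57 above the reference on every array. Every array of a group was counted as a separate sample, as labelled.

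The sequences of the probes matter here because probes of the same gene gave different results. Each array probe has 60 bases, of which the first 30 are shown. *Hsd3b1*, the gene with the widest differences, had 3 named probes, *Hsd17b3* had 2, and *Cyp2a4* had 2, listed from the brightest to the dimmest.
Hsd3b1 brightest probe: aacatagctgagtctcagttcttaggcttc
Hsd3b1 second probe: ctctcatctgacttttaacaatttaacagc
Hsd3b1 dimmest probe: atgctgaaaaatggtggcactttgaatact
Hsd17b3 brightest probe: tctatagcagcaccgctcaacgattcctcc
Hsd17b3 second probe: gctcatgaaatcattgcaataattctgaac
Cyp2a4 brightest probe: ttcaccatctatctgggatctcgccgaatt
Cyp2a4 second probe: gtcaaaggtacagaagaaacagaggacact
Probes of different genes among the 83 were alike (at least 80% of bases over at least 40 aligned bases) in 3 pairs, *Cyp2c38* with *Cyp2c29*, *Cyp2c39* with *Cyp2c38*, and *Cyp4a12b* with *Cyp4a12a*. None of these 5 genes passed on its brightest probe in a test below. Another *Cyp2c38* probe, not among those alike, was lower at 7 dpn than at birth in wild-type ovaries on leaving out newborn wild-type array 1 (-0.41, adjusted p 0.0194). The values of these genes may hold signal of each other.

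In 7 dpn ovaries without *Foxl2*, transcripts of enzymes that complete progesterone and estradiol synthesis were far lower than in wild-type ovaries, while that of a fatty acid hydroxylase was higher. Several other P450 genes were higher as well, with calls that were lost on leaving out some single arrays. *Hsd3b1* was 15.1-fold lower and *Hsd17b1* 7.15-fold lower in the null ovaries. *Cyp4f14* was 2.56-fold and *Cyp2f2*, on its brightest probe, 2.05-fold higher. Among the 83 genes, 9 passed an adjusted p of 0.05 by limma (10.8%), 5 higher and 4 lower. Among all named genes tested, 8.63% passed, 4.48% higher and 4.15% lower, so that the share among the enzymes lay near that of the array as a whole. The median difference of the 83 genes was 0.03 and that of all named genes 0.02.

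*Hsd3b1* encodes the 3beta-hydroxysteroid dehydrogenase of gonads and adrenal, which turns pregnenolone into progesterone. Its log2 ratios at 7 dpn were 0.25 and -0.16 in null, 3.79 and 3.50 in heterozygous and 3.80 and 4.11 in wild-type ovaries. Both null arrays thus lay far below all others, whereas the heterozygous arrays were just below the wild-type arrays. The difference of null from wild-type was -3.91 (SE 0.39, adjusted p 0.000263 by limma, n = 2 against 2) and from heterozygous ovaries -3.60 (SE 0.39, adjusted p 0.000928), a 12.1-fold lower ratio. The size depended on the scale, being -8.07 against wild-type and -5.87 against heterozygous ovaries in the ovary channel alone. These scales differ in the use of the reference signal and in the normalization. Which of these sets the sizes apart, and whether the reference signal of this probe was the same on all arrays, was not tested.

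*Hsd17b1* encodes the granulosa cell enzyme that reduces estrone to estradiol. At 7 dpn it read 0.05 and 0.01 in null, 2.52 and 2.61 in heterozygous, and 2.96 and 2.78 in wild-type ovaries. The null ovaries were close to the reference, and the other genotypes were well above it without overlap. Null differed from wild-type by -2.84 (SE 0.31, adjusted p 0.000537) and from heterozygous ovaries by -2.53 (SE 0.31, adjusted p 0.00203), or by -3.86 and -3.38 in the ovary channel alone.

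*Hsd17b3* encodes the testicular enzyme that reduces androstenedione to testosterone. Its ratios were 0.05 and 0.27 in null, -0.20 and -0.25 in heterozygous, and -0.31 and -0.18 in wild-type ovaries at 7 dpn. The null arrays were the highest, and the heterozygous and wild-type arrays overlapped. The gain was small on this probe, 0.41 against wild-type (SE 0.08, adjusted p 0.0153) and 0.39 against heterozygous ovaries (adjusted p 0.0375).

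*Hsd17b7* encodes an enzyme of both estradiol formation and cholesterol synthesis. It read 0.13 and 0.04 in null, 0.18 and 0.16 in heterozygous, and 0.62 and 0.38 in wild-type ovaries, so that the wild-type arrays were above the arrays of both other genotypes. Null was lower than wild-type by 0.42 on the log2 scale (difference -0.42, SE 0.10, adjusted p 0.0413), and this call was lost on leaving out any 1 of 11 of the 15 arrays. Heterozygous ovaries differed from wild-type by -0.34 (adjusted p 0.339).

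**Figure D1:**
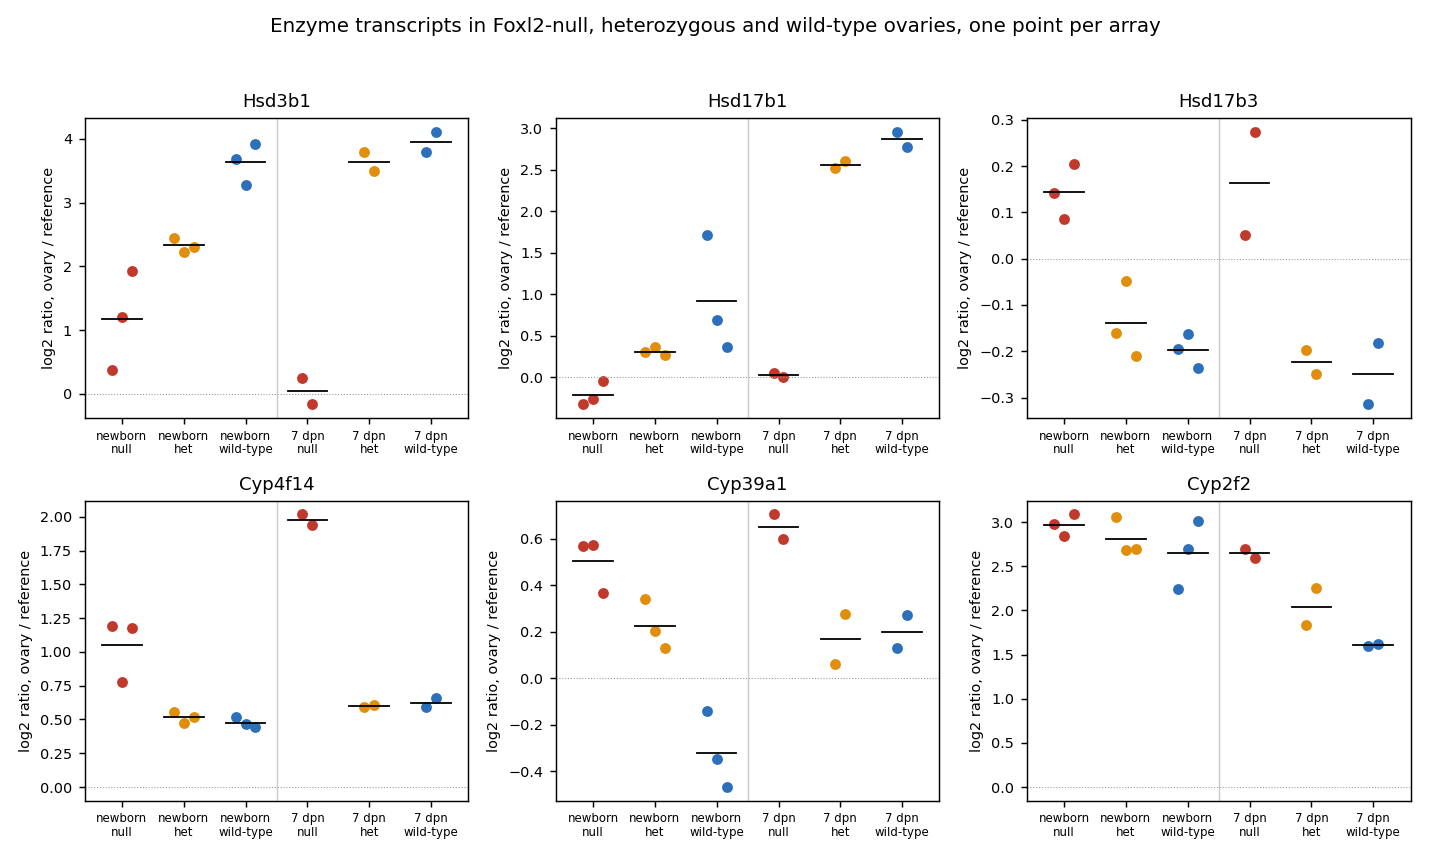
Log2 ratio of ovary over reference (vertical axis) on each array for 6 genes, with the 6 groups of age and genotype along the horizontal axis. Points are arrays and bars are group means. *Hsd3b1* and *Hsd17b1* fall to ratios near 0 in the null ovaries at 7 dpn, whereas *Cyp4f14* stands near 2 there and at 0.59 to 0.66 in the other 7 dpn ovaries.

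Among the P450 genes, 4 of 48 were higher and 1 lower in the null ovaries at 7 dpn. *Cyp4f14*, which encodes an omega-hydroxylase that inactivates leukotriene B4, read 2.02 and 1.94 in null, 0.59 and 0.61 in heterozygous and 0.59 and 0.66 in wild-type ovaries. Heterozygous and wild-type arrays overlapped, and the null arrays were separate from both. The difference was 1.35 against wild-type (SE 0.11, adjusted p 1e-04) and 1.38 against heterozygous ovaries (SE 0.11, adjusted p 0.000193). Other family members moved less and in both directions. *Cyp4f39*, whose product hydroxylates very long fatty acids of skin lipids, was at -0.19 and -0.25 in null, 0.12 and 0.10 in heterozygous and 0.24 and 0.14 in wild-type ovaries. It was lower in null than in wild-type (-0.41, SE 0.07, adjusted p 0.00502) and than in heterozygous ovaries (-0.33, adjusted p 0.026). The latter call was lost on leaving out any 1 of 4 of the 15 arrays. *Cyp4f13* was at -0.14 and -0.06 in null, -0.29 and -0.40 in heterozygous and -0.47 and -0.38 in wild-type ovaries, and was higher in null than in wild-type by 0.33 (SE 0.07, adjusted p 0.0217).

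*Cyp2f2*, best known for activating naphthalene in the lung, read 2.70 and 2.60 in null, 1.83 and 2.25 in heterozygous, and 1.60 and 1.62 in wild-type ovaries at 7 dpn. The genotypes did not overlap, with the heterozygous arrays in between. Null exceeded wild-type by 1.04 (SE 0.22, adjusted p 0.0194), while the difference from heterozygous ovaries, 0.61, did not pass (adjusted p 0.265). A dimmer probe of this gene differed by -0.13 (adjusted p 0.626). *Cyp1b1*, whose product hydroxylates estradiol, was at 0.23 and 0.43 in null, 0.11 and 0.13 in heterozygous and -0.04 on both wild-type arrays, a difference from wild-type of 0.37 (SE 0.08, adjusted p 0.0272).

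None of the 11 sulfotransferase genes or the 8 glucuronosyltransferase genes passed in null against wild-type ovaries at 7 dpn by limma, and of the *Cyp2* genes *Cyp2f2* alone did. *Cyp39a1*, a 24-hydroxycholesterol 7alpha-hydroxylase, came closest to passing among all 83 genes (0.45, adjusted p 0.0553), followed by *Sult4a1*, a brain sulfotransferase (0.40, adjusted p 0.0665), and *Cyp2a5*, which hydroxylates coumarin (-0.30, adjusted p 0.178). Before adjustment, 16 of the 83 genes had p under 0.05, and 24% of all named genes did. The median size of the difference was 0.102 among the 83 genes and 0.122 among all named genes.

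**Figure D2:**
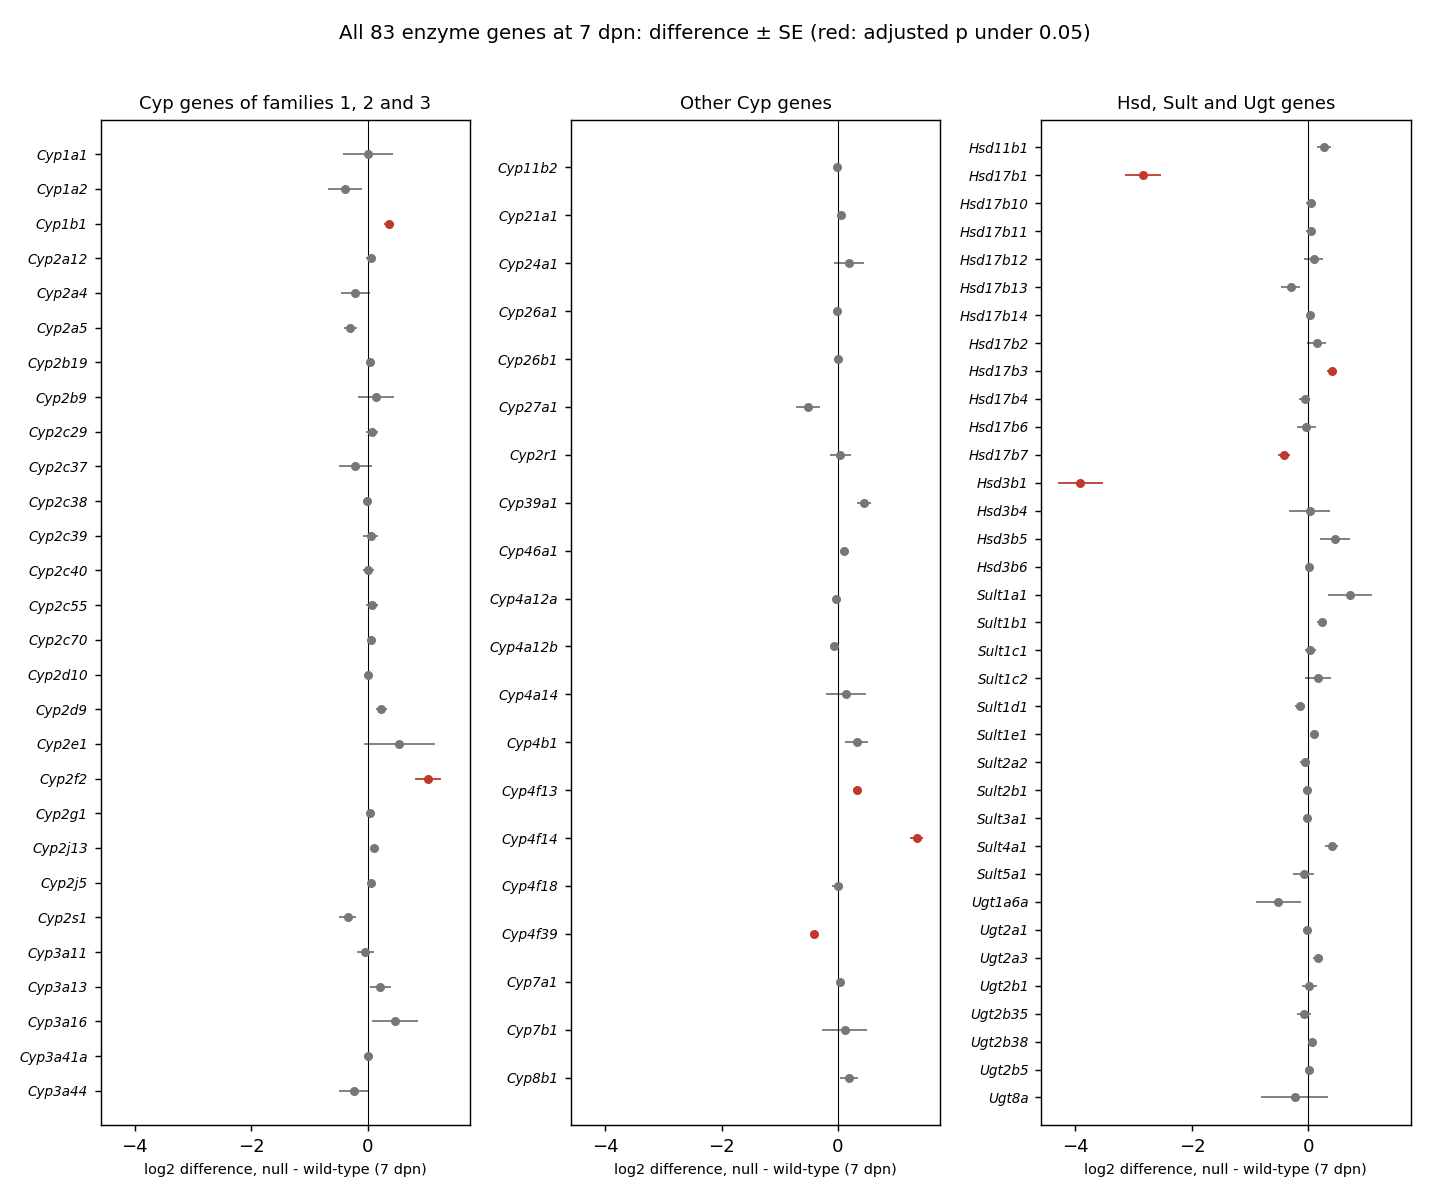
Difference of *Foxl2*-null from wild-type ovaries at 7 dpn in log2 ratio (horizontal axis) for all 83 genes, grouped by family, with bars of 1 SE from limma (n = 2 against 2 arrays). Genes past an adjusted p of 0.05 are in red. *Hsd3b1* (-3.91) and *Hsd17b1* (-2.84) lie far to the left of all others, *Cyp4f14* (1.35) and *Cyp2f2* (1.04) to the right, and most genes lie near 0.

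Against heterozygous ovaries, 5 of the 83 genes passed at 7 dpn (6.02%, 2 higher and 3 lower in null), whereas 3.25% of all named genes did (1.68% higher, 1.57% lower). They were *Hsd3b1*, *Hsd17b1*, *Cyp4f39*, *Hsd17b3* and *Cyp4f14*, with the values above. *Cyp39a1* (0.48, adjusted p 0.0773) and *Cyp27a1*, a sterol 27-hydroxylase (-0.79, adjusted p 0.0839), came next, then *Sult1d1* (-0.31, adjusted p 0.11). Heterozygous ovaries differed from wild-type in none of the 83 genes by limma, with 4 of them at an unadjusted p under 0.05, and 0.0572% of all named genes passed. The smallest p values were those of *Sult4a1* (0.45, adjusted p 0.22), *Hsd17b7* (-0.34, adjusted p 0.339) and *Hsd17b13*, a lipid droplet enzyme (-0.41, adjusted p 0.486). On leaving out each array in turn, the *Hsd17b13* value ran from -0.72 to -0.11. *Hsd3b1* differed by -0.31 (SE 0.39, adjusted p 0.949) and *Hsd17b1* by -0.30 (SE 0.31, adjusted p 0.921) between heterozygous and wild-type ovaries. Null against wild-type and heterozygous against wild-type used the same wild-type arrays, so that these differences are not independent.

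With only 2 arrays in each group, these counts turned on single arrays. Without 7 dpn null array 2, 3 genes passed in null against wild-type (*Hsd3b1*, *Hsd17b1* and *Cyp4f14*) and 3 in null against heterozygous ovaries, 3 also passed there without heterozygous array 2, and without wild-type array 1 heterozygous and wild-type ovaries differed in 2 genes. Leaving out that array, 7 genes passed in null against wild-type, with *Hsd3b1*, *Hsd17b1*, *Cyp4f14* and *Cyp4f39* kept and *Cyp2f2* (1.03, adjusted p 0.0811), *Cyp1b1*, *Cyp4f13*, *Hsd17b3* and *Hsd17b7* lost. In a fit of the 7 dpn arrays alone the counts were 4 and 3.

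Markers of several cell types moved with genotype at 7 dpn. The granulosa cell list (10 of 11 genes measured) averaged 0.56 to 0.61 in null, 1.19 to 1.27 in heterozygous and 1.78 to 1.98 in wild-type ovaries, and 6 of its genes were lower in null than in wild-type ovaries and none higher. In heterozygous against wild-type ovaries *Inhba* alone of this list was lower (-2.09, SE 0.29, adjusted p 0.042). The theca cell list (6 of 8 measured) averaged 0.15 to 0.40, 0.71 to 0.89 and 1.00 to 1.68, with 3 genes lower. The Sertoli cell list (7 of 8 measured) averaged 1.14 to 1.32, 0.93 to 1.03 and 0.66 to 1.01, with *Sox9*, the testis-determining supporting cell factor, 1.71 higher (adjusted p 7.57e-05) and *Fgf9* 0.21 higher. The part of these cell types in the enzyme differences was not tested. Of the lists of other organs, none of 4 adrenal, 7 fat cell, 3 red cell, 5 macrophage or 4 smooth muscle genes passed, and of 13 oocyte, 7 liver, 6 endothelial and 5 oviduct genes 2, 1, 1 and 1 were lower and 2 of the oviduct genes were higher. *Cyp11b2* and *Cyp21a1*, the P450 genes that define adrenal cortex, stayed between -0.20 and 0.01 on every array. The adrenal list of 4 genes that holds them averaged 0.76 to 0.79 in null, 0.50 to 0.56 in heterozygous and 0.38 to 0.50 in wild-type ovaries at 7 dpn.

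The other genes of steroid synthesis, which are not among the 83, included further large falls at 7 dpn. Of 20 listed partners 18 were measured, and 6 were lower and 2 higher in null than in wild-type ovaries at 7 dpn (median -0.30, all named genes 0.02). *Cyp11a1* differed by -3.45 (SE 0.67, adjusted p 0.0131), *Cyp19a1* by -2.42 (SE 0.33, adjusted p 0.00195) and *Cyp17a1* by -0.89 (SE 0.22, adjusted p 0.0358). *Akr1c18*, which inactivates progesterone, differed by -3.11 (SE 0.30, adjusted p 0.000251). *Akr1c14*, a 3alpha-hydroxysteroid dehydrogenase, and *Nr5a2*, a nuclear receptor of granulosa cells, were lower as well, by -1.16 and -2.53. *Nr0b1*, which represses steroidogenic genes, was 1.89 higher (adjusted p 0.00652), and *Tspo*, a mitochondrial cholesterol-binding protein, 0.74 higher (adjusted p 0.034). *Star*, which carries cholesterol into mitochondria, differed by -0.32 (adjusted p 0.574). *Cyp11a1*, *Cyp17a1* and *Star* are also in the theca cell list and *Nr5a2* in the granulosa cell list, so that the counts of these lists share genes.

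Partner enzymes of conjugation changed in both directions. Of 37 listed genes 29 were measured, and 4 were higher and 3 lower in null ovaries at 7 dpn. Among the former, *Gsta3* and *Gsta2*, glutathione transferases, were 1.76 and 0.79 higher, and *Nqo1*, a quinone reductase, 1.08 higher. *Ephx2*, a soluble epoxide hydrolase, differed by -2.79 (adjusted p 0.000214), *Gusb*, which removes glucuronic acid, by -0.58, and *Gstm5* by -0.36. Of 16 measured genes of cholesterol synthesis and uptake (24 listed), *Fdps* alone passed (-0.48, adjusted p 0.01). Of 13 measured retinoid genes (20 listed), *Aldh1a2*, which makes retinoic acid, was 0.90 higher and *Crabp1*, which binds it, 1.28 higher, while the retinoic acid hydroxylases *Cyp26a1* and *Cyp26b1* had group means between -0.06 and 0.02 at both ages.

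At birth, *Hsd3b1* again had the widest difference of null from wild-type ovaries, and the heterozygous ovaries lay between the other genotypes. Of the 83 genes, 4 passed in null against wild-type newborn ovaries (4.82%, 3 higher and 1 lower), and 2.54% of all named genes passed (1.69% higher, 0.849% lower). *Hsd3b1* was 5.49-fold lower, *Cyp39a1* 1.77-fold, *Cyp4f14* 1.49-fold and *Hsd17b3* 1.27-fold higher. The median difference was -0.01 among the 83 genes and 0.02 among all named genes, and 13 of the 83 had an unadjusted p under 0.05.

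*Hsd3b1* read 0.38, 1.21 and 1.93 on the newborn null arrays, 2.45, 2.22 and 2.31 on the heterozygous and 3.69, 3.28 and 3.92 on the wild-type arrays. The genotypes did not overlap, and the null arrays were spread the most (SD 0.78, against 0.12 and 0.32). Null differed from wild-type by -2.46 (SE 0.32, adjusted p 0.00304), whereas the steps from wild-type to heterozygous (-1.30, SE 0.32, adjusted p 0.155) and from heterozygous to null (-1.15, SE 0.32, adjusted p 0.213) did not pass separately. With normexp background correction both passed, at -1.62 (adjusted p 0.013) and -1.03 (adjusted p 0.0357). In the ovary channel alone null against wild-type was -4.68, and the steps were -2.82 (adjusted p 0.369) and -1.86 (adjusted p 0.7).

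*Hsd17b1* was at -0.33, -0.27 and -0.05 in null, 0.30, 0.36 and 0.27 in heterozygous and 1.71, 0.69 and 0.36 in wild-type newborn ovaries. The null arrays lay below all others, and the lowest wild-type array met the highest heterozygous array. Its difference in null against wild-type, -1.14 (SE 0.26, adjusted p 0.0564), did not pass with all arrays. Without newborn wild-type array 1, which at 1.71 was the highest, it was -0.74 and passed (adjusted p 0.00433).

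*Cyp39a1* read 0.57, 0.57 and 0.37 in null, 0.34, 0.20 and 0.13 in heterozygous and -0.14, -0.35 and -0.47 in wild-type newborn ovaries. The order null, heterozygous, wild-type held without overlap. Null exceeded wild-type by 0.82 (SE 0.10, adjusted p 0.00211), and heterozygous exceeded wild-type by 0.55, which did not pass (adjusted p 0.0767). *Cyp4f14* read 1.20, 0.78 and 1.18 in null, 0.55, 0.48 and 0.52 in heterozygous and 0.52, 0.47 and 0.44 in wild-type newborn ovaries. Here the null arrays alone stood out, by 0.57 from wild-type (SE 0.09, adjusted p 0.0113) and by 0.53 from heterozygous ovaries (SE 0.09, adjusted p 0.0411). With normexp background correction these were 0.24 (adjusted p 0.0597) and 0.28 (adjusted p 0.0616), and in the ovary channel alone 0.40 (adjusted p 0.708) and 0.24 (adjusted p 1). Over all 25 alternatives the call against wild-type was lost in 5 and that against heterozygous ovaries in 20. *Hsd17b3* was at 0.14, 0.09 and 0.21 in null, -0.16, -0.05 and -0.21 in heterozygous and -0.19, -0.16 and -0.24 in wild-type newborn ovaries, and was 0.34 higher in null than in wild-type (SE 0.07, adjusted p 0.0291).

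*Cyp4f14* was the single gene of the 83 (1.2%) that passed in null against heterozygous newborn ovaries, where 0.645% of all named genes did. None passed in heterozygous against wild-type newborn ovaries by limma, with 9 at an unadjusted p under 0.05 and 0.0408% of all named genes called. *Cyp27a1*, next to the threshold, was at 1.02, 1.01 and 1.05 in null, 1.19, 1.15 and 1.04 in heterozygous and 2.03, 1.46 and 1.63 in wild-type newborn ovaries, so that the mutant arrays lay below all wild-type arrays. The null ovaries differed from wild-type by -0.68 (adjusted p 0.0758), the heterozygous ones by -0.58 (adjusted p 0.174). Leaving out newborn wild-type array 1, these were -0.52 (adjusted p 0.0786) and -0.42 (adjusted p 0.154).

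Leaving out newborn wild-type array 1 raised the counts at birth, among the enzymes and over the whole array. In null against wild-type 7 of the 83 genes then passed (6.99% of all named genes), in heterozygous against wild-type 3 (5.71%), and in null against heterozygous 2 (0.922%). The 4 genes called with all arrays were kept in null against wild-type, and *Hsd17b1*, *Cyp2a4*, a steroid 15alpha-hydroxylase (-0.84, adjusted p 0.0173), and *Hsd17b6*, which oxidizes androgens such as androstanediol (-0.43, adjusted p 0.0198), were added as lower. In heterozygous ovaries *Cyp39a1* was 0.64 higher (adjusted p 0.00434), and *Cyp2a4* (-0.88, adjusted p 0.0147) and *Hsd17b6* (-0.55, adjusted p 0.00705) were lower. *Hsd17b6* read -0.53 on newborn wild-type array 1 but -0.01 and 0.02 on the others, while all 6 mutant arrays lay between -0.66 and -0.29. *Hsd3b1* kept its difference in null ovaries (-2.43, adjusted p 0.00501) and in heterozygous ovaries remained short of the threshold (-1.27, adjusted p 0.0734). Without newborn null array 3, 2 genes passed in null against wild-type. In null against heterozygous ovaries no gene passed without any 1 array other than newborn null array 2 and newborn wild-type array 1.

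At birth the granulosa cell list averaged 0.41 to 0.46 in null, 0.59 to 0.60 in heterozygous and 0.76 to 1.36 in wild-type ovaries, and *Fst* alone was lower in null than in wild-type. The theca cell list averaged 0.08 to 0.35, 0.14 to 0.23 and 0.21 to 0.80, with no gene called, and the Sertoli cell list 0.64 to 0.79, 0.33 to 0.36 and 0.25 to 0.51, with *Sox9* 0.76 higher (adjusted p 0.00615). Of 4 adrenal cortex genes *Mc2r*, the corticotropin receptor, was higher in null ovaries (0.58, adjusted p 0.0216), and no gene of the oocyte, liver, fat cell, oviduct, red cell, endothelial, macrophage or smooth muscle lists passed by limma. The part of these cell types in the enzyme differences was not tested. Of the steroid synthesis partners *Nr0b1* alone passed at birth (1.34, adjusted p 0.0291). *Cyp11a1* differed by -0.65 (adjusted p 0.657), *Cyp17a1* by -0.02 (adjusted p 0.976) and *Cyp19a1* by -0.72 (adjusted p 0.265). *Ephx2* (-1.58, adjusted p 0.00488), *Gsta3* (0.97, adjusted p 0.011) and *Nqo1* (0.54, adjusted p 0.0278) passed in the same direction as at 7 dpn. No retinoid gene passed at birth. On leaving out newborn wild-type array 1, *Sox9* (0.77), *Mc2r* (0.45), *Nr0b1* (1.38), *Ephx2* (-1.25), *Gsta3* (0.88), *Nqo1* (0.56) and *Fst* (-1.32) still passed, and *Cyp11a1* (-0.15), *Cyp17a1* (0.05) and *Cyp19a1* (-0.31) still did not. *Tspo* (0.82, adjusted p 0.00202) and *Scarb1*, a lipoprotein receptor (0.43, adjusted p 0.00775), were then added as higher, and *Rara*, a retinoic acid receptor (-0.64, adjusted p 0.00518), and *Rdh5*, a retinol dehydrogenase (-0.23, adjusted p 0.0287), as lower. Of the cell type lists, *Dhh* (1.83) was then added as higher, and *Gja1* (-0.74) and *Bmp15* (-0.36) as lower. In heterozygous against wild-type ovaries without this array, 3 of 10 granulosa genes were lower, *Fst* (-0.89), *Inha* (-0.57) and *Amh* (-0.49), as were *Bmp15* (-0.46) and *Rara* (-0.76), while *Tspo* (0.51) and *Arsa*, a sulfatase (0.48), were higher. Their part in the heterozygous values of *Cyp39a1*, *Cyp2a4* and *Hsd17b6* was not tested.

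**Figure D3:**
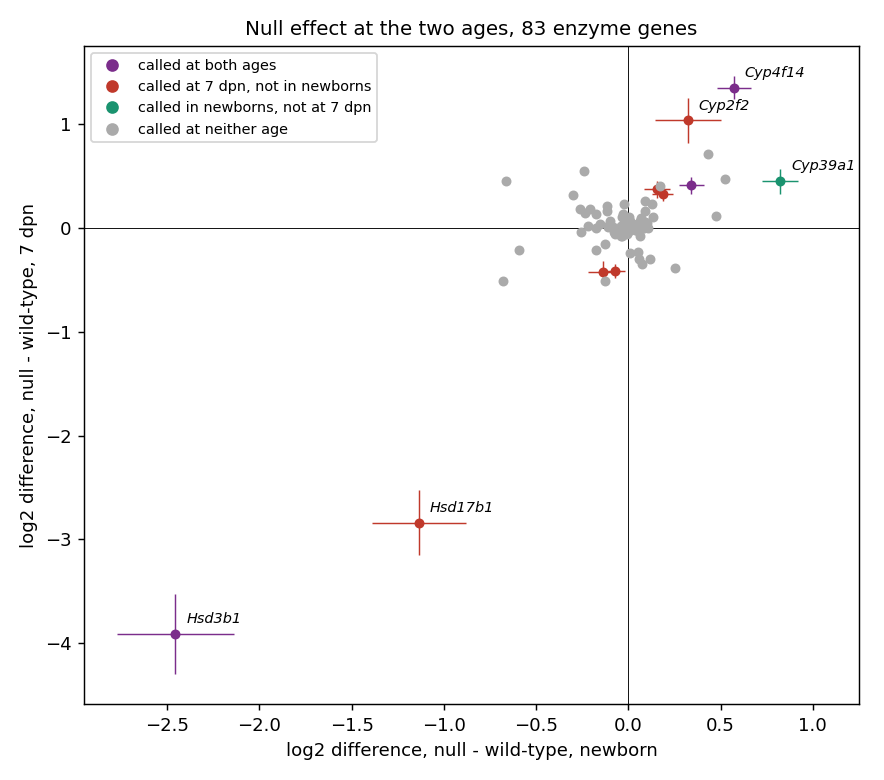
Difference of *Foxl2*-null from wild-type ovaries in log2 ratio at birth (horizontal axis) and at 7 dpn (vertical axis) for the 83 genes. Colours mark genes past an adjusted p of 0.05 at either or both ages, with bars of 1 SE. *Hsd3b1*, *Hsd17b3* and *Cyp4f14* passed at both, with the same sign.

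Whether the null effect itself differed between the ages was tested as an interaction. None of the 83 genes passed by limma, with 12 at an unadjusted p under 0.05, and 0.278% of all named genes passed. The effect of *Cyp4f14* was 0.78 larger at 7 dpn (SE 0.15, adjusted p 0.0702), that of *Hsd17b1* differed by -1.70 (SE 0.40, adjusted p 0.156), that of *Cyp4f39* by -0.34 (adjusted p 0.177) and that of *Hsd3b1* by -1.46 (SE 0.50, adjusted p 0.3). Without newborn wild-type array 1, 3 genes passed and 4.35% of all named genes did: *Hsd17b1* (-2.10, adjusted p 0.000502), *Cyp4f14* (0.76, adjusted p 0.0328) and *Cyp4f39* (-0.38, adjusted p 0.0422). Without newborn null array 2, 1 gene passed. Of the marker lists, the theca cell gene *Gli1* alone passed for the null effect with all arrays (-1.38, SE 0.23, adjusted p 0.0469). For the heterozygous effect no gene passed either, with 4 at an unadjusted p under 0.05 and 0% of all named genes called, and none passed without any 1 of the arrays. The smallest p values were those of *Cyp39a1* (-0.58, adjusted p 0.519), *Cyp27a1* (0.85, adjusted p 0.601) and *Cyp2c40* (0.31, adjusted p 0.643), and *Hsd3b1* differed by 0.99 (adjusted p 0.691).

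Between birth and 7 dpn wild-type ovaries gained *Hsd17b1*, *Ugt1a6a* and the sterol P450 gene *Cyp39a1* relative to the reference, and lost *Cyp2f2*. Of the 83 genes 7 passed (8.43%, 6 higher and 1 lower at 7 dpn), against 12.6% of all named genes (7.53% higher, 5.09% lower), and 17 had an unadjusted p under 0.05. The median difference was -0.02 among the 83 and 0.00 among all named genes. The newborn arrays and the 7 dpn arrays also differed in the day of feature extraction and in pooling, so that age cannot be told apart from these.

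*Hsd17b1* rose from the newborn values given above to 2.96 and 2.78, by 1.95 (SE 0.29, adjusted p 0.00398), a 3.86-fold gain. On its brightest probe *Hsd3b1* had wild-type means of 3.63 (SD 0.32, n = 3) at birth and 3.95 (SD 0.22, n = 2) at 7 dpn, a difference of 0.33 (SE 0.35, adjusted p 0.64). Its dimmest probe differed by 1.19 (SE 0.44, adjusted p 0.126), and by 1.68 without newborn wild-type array 1, which passed (adjusted p 0.00723). *Ugt1a6a*, which conjugates phenols with glucuronic acid, read -2.18, -3.55 and -3.50 in newborn and -1.05 and -1.76 in 7 dpn wild-type ovaries, below the reference throughout, and rose by 1.67 (SE 0.36, adjusted p 0.0166). Genes of the *Ugt1a* cluster share exons, so that its signal may come from several of them. *Cyp2f2* fell by 1.04 on the log2 scale (SE 0.20, adjusted p 0.0113), from 2.25, 2.69 and 3.01 to 1.60 and 1.62, while its dimmer probe differed by 0.02.

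The other genes called between the ages had smaller differences. *Cyp27a1* rose by 0.68 (SE 0.18, adjusted p 0.0445) to 2.63 and 2.13, a call lost on leaving out any 1 of 11 of the 15 arrays and not seen on its dimmer probe (adjusted p 0.998). *Cyp39a1* rose by 0.52 (SE 0.11, adjusted p 0.0164) and *Cyp4f39* by 0.29 (SE 0.06, adjusted p 0.0155). *Cyp2s1*, an epithelial P450, rose by 0.51 (SE 0.13, adjusted p 0.038), from -0.05, -0.46 and -0.52 to 0.19 and 0.15. This call was lost on leaving out any 1 of 8 of the 15 arrays, and the difference was 0.081 in the authors' series values. *Hsd17b4*, a peroxisomal enzyme of fatty acid breakdown, differed by -0.29 (adjusted p 0.0587), *Cyp2c70* by -0.14 (adjusted p 0.0795) and *Hsd17b13* by 0.46 (adjusted p 0.0828). The *Hsd17b13* value ran from 0.15 to 0.77 on leaving out each array in turn.

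Newborn wild-type array 1 was the wild-type newborn array nearest to the 7 dpn values for *Hsd17b1*, *Ugt1a6a*, *Cyp2f2*, *Cyp27a1*, *Cyp2s1*, *Cyp39a1* and *Cyp4f39*. Without it all 7 genes were kept with larger differences, from 0.33 for *Cyp4f39* to 2.34 for *Hsd17b1*, and 11 genes passed, against 22.7% of all named genes. The 4 added were *Hsd17b7* (0.36, adjusted p 0.0175), *Cyp2a4* (-0.68, adjusted p 0.031), *Hsd17b4* (-0.32, adjusted p 0.0412) and *Hsd17b6* (-0.56, adjusted p 0.00404). The value of *Cyp2a4* is that of its brightest probe. Its second probe went the other way and was called higher at 7 dpn in this fit, but was not well above background on the newborn wild-type arrays left in it. Without newborn wild-type array 2 or array 3 the count fell to 2, and without 7 dpn wild-type array 1 to 4.

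**Figure D4:**
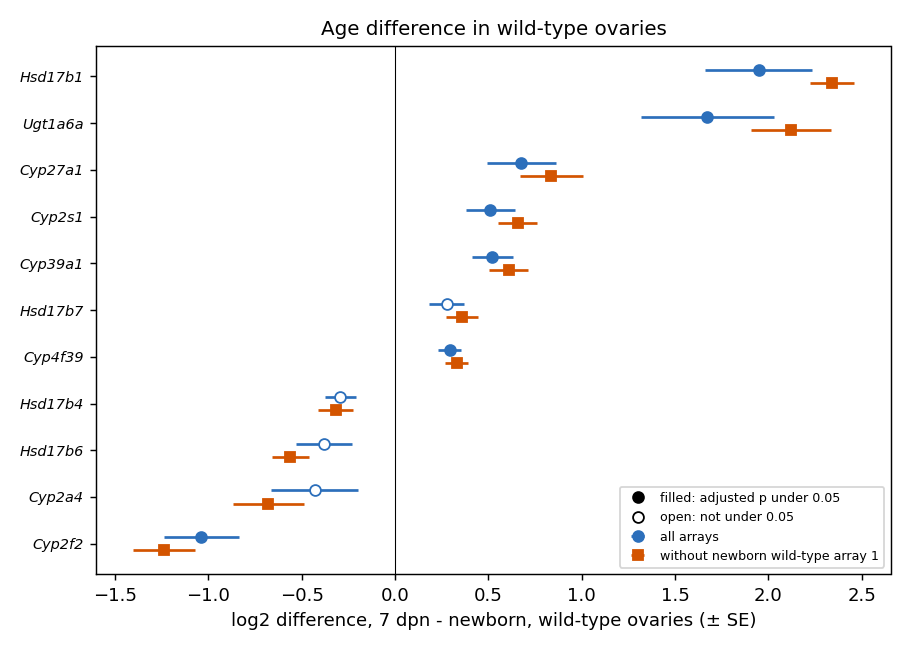
Difference of 7 dpn from newborn wild-type ovaries in log2 ratio (horizontal axis) for 11 genes called with or without newborn wild-type array 1, with bars of 1 SE. The 2 symbols give the value over all arrays and the value without that array. *Hsd17b1* moves from 1.95 to 2.34 and *Ugt1a6a* from 1.67 to 2.12, and every gene keeps its sign.

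Over the same interval the fat cell list averaged 2.03, 0.30 and 0.24 on the newborn wild-type arrays and 1.90 and 2.13 at 7 dpn, and none of its 7 genes passed with all arrays, whereas 5 (*Adipoq*, *Cfd*, *Fabp4*, *Plin1* and *Pparg*) were higher at 7 dpn without newborn wild-type array 1, by 0.81 to 3.61. With all arrays, 5 of 10 granulosa cell, 3 of 6 theca cell, 3 of 4 smooth muscle, 2 of 7 liver and 1 of 5 macrophage genes were higher at 7 dpn, 2 oocyte genes were higher and 2 lower, 1 Sertoli gene was higher and 1 lower, and 1 oviduct gene was lower. Of the steroid synthesis partners 6 were higher and none lower (*Akr1c18*, *Cyb5a*, *Cyp11a1*, *Cyp17a1*, *Cyp19a1* and *Scarb1*), with *Cyp11a1* up by 2.34 (adjusted p 0.0396), *Akr1c18* by 1.84 (adjusted p 0.00445) and *Cyp19a1* by 1.57 (adjusted p 0.0114). *Ephx2* rose by 1.29 (adjusted p 0.0107) and *Gusb* by 0.68 (adjusted p 0.00802), *Dhcr7* was higher and *Stra8*, a meiosis gene induced by retinoic acid, lower. Without newborn wild-type array 1, 9 steroid synthesis partners were higher, with *Star* (0.91), *Nr5a2* (1.87) and *Tspo* (0.52) added and *Cyp11a1* at 2.84, *Akr1c18* at 2.12 and *Cyp19a1* at 1.98. The part of the fat and other cells in the age differences was not tested.

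The probes of *Hsd3b1* split in 2 ways. The dimmest probe, whose first bases are atgctgaaaaatggtggcactttgaatact, followed the brightest one: at 7 dpn it read 0.44 and 0.03 in null, 2.91 and 2.89 in heterozygous and 4.02 and 3.52 in wild-type ovaries, and in newborns 0.13, 0.41 and 0.93 in null, 0.98, 0.86 and 0.92 in heterozygous and 3.54, 1.55 and 2.63 in wild-type ovaries. Null differed from wild-type by -3.53 at 7 dpn (adjusted p 0.0019) and by -2.08 at birth (adjusted p 0.0242; -1.60 without newborn wild-type array 1, adjusted p 0.0138), and from heterozygous ovaries by -2.66 at 7 dpn (adjusted p 0.0166). On this probe the newborn heterozygous arrays overlapped with the null arrays, which they did not on the brightest. The second probe had group means between -0.10 and 0.25 and differed by -0.35 at 7 dpn (adjusted p 0.0598).

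The second probe of *Hsd17b3*, gctcatgaaatcattgcaataattctgaac in its first bases, gave the same direction as the brightest one with a wider separation. It read 0.73 and 1.00 in null, -0.19 and -0.08 in heterozygous and -0.01 and -0.18 in wild-type ovaries at 7 dpn. In newborns it read 0.63, 0.72 and 0.77 in null, 0.06, 0.14 and 0.03 in heterozygous, and -0.07, 0.07 and 0.06 in wild-type ovaries. All 5 null arrays were above all 10 others. The difference of null from wild-type was 0.96 at 7 dpn (adjusted p 0.000306) and 0.68 at birth (adjusted p 0.00185; 0.64 without newborn wild-type array 1), and from heterozygous ovaries 1.00 (adjusted p 0.000485) and 0.63 (adjusted p 0.00958).

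The second probe of *Cyp2a4* was well above background on 8 of the 15 arrays, among them both 7 dpn wild-type arrays and array 1 of the newborn wild-type arrays. It read 1.63 and 3.32 in wild-type, -0.15 and 3.09 in heterozygous and -1.03 and -0.17 in null ovaries at 7 dpn, and between -0.44 and 0.17 in all newborn ovaries. The heterozygous and wild-type arrays were spread widely, and the null difference did not pass (-3.08, SE 0.82, adjusted p 0.0535). The brightest *Cyp2a4* probe differed by -0.21 (adjusted p 0.795).

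**Figure D5:**
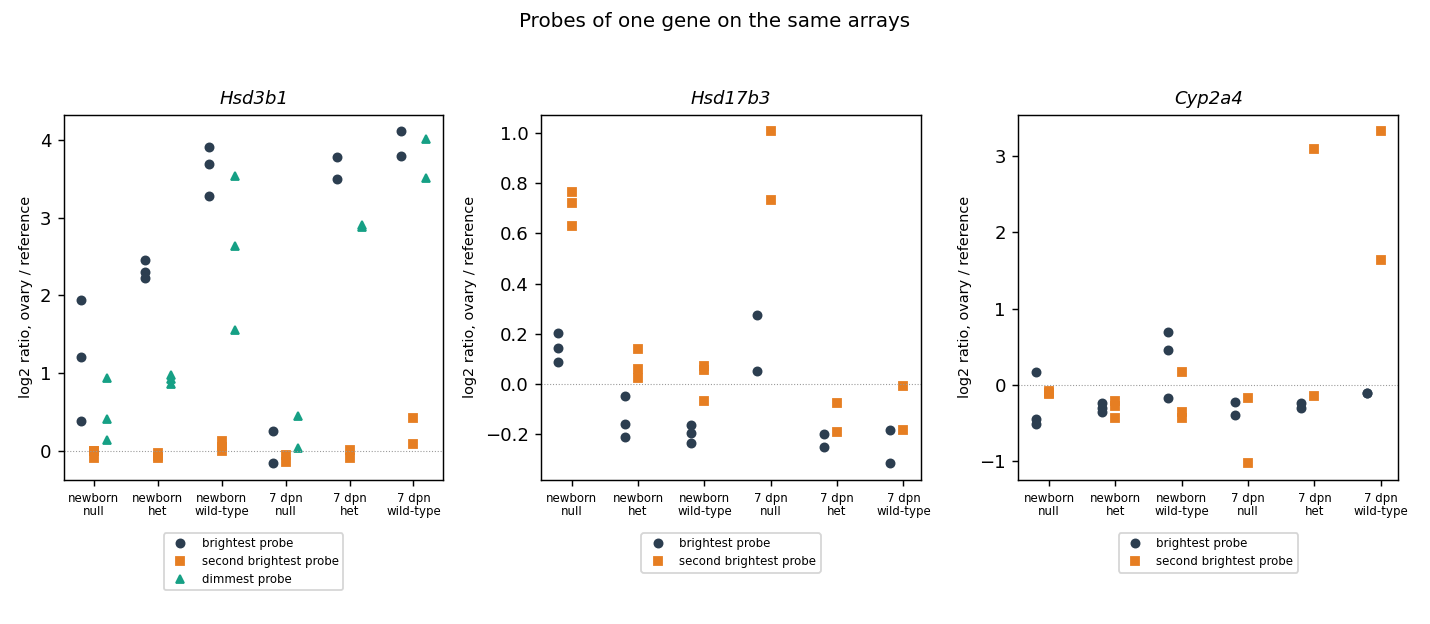
Log2 ratio of ovary over reference (vertical axis) on each array by group (horizontal axis), separately for the 3 probes of *Hsd3b1* and the 2 probes each of *Hsd17b3* and *Cyp2a4*. The second *Hsd3b1* probe stays near 0 in all groups, while the brightest (circles) and dimmest (triangles) fall in null ovaries, and the second *Hsd17b3* probe separates null from the other genotypes at both ages.

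Most of the 83 genes varied little over the 6 groups. Their group means lay within a range of 0.5 in 63 genes (75.9%), as in 73.5% of all named genes, and all 6 group means were within 0.5 of the reference in 52 (62.7%), against 49.5% of all named genes. The probe was well above background on all 15 arrays for 76 genes and on none for *Cyp1a1* and *Cyp2e1*. In 6 genes every group mean was more than 1 above the reference (*Cyp7b1*, *Ugt8a*, *Sult1a1*, *Cyp2f2*, *Hsd17b4* and *Cyp27a1*), and in 3 every group mean was more than 1 below it (*Cyp3a11*, *Cyp4a14* and *Cyp1a1*, the last not above background).

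*Cyp7b1*, the oxysterol 7alpha-hydroxylase, had group means from 4.31 (SD 0.26, newborn wild-type) to 4.94 (SD 0.19, 7 dpn null), and *Ugt8a*, which makes galactosylceramide, from 3.60 (SD 0.13, newborn wild-type) to 4.28 (SD 0.05, 7 dpn heterozygous). For both, arrays of the same group differed by as much as the group means, *Ugt8a* for example reading 2.47, 4.25 and 4.23 on the newborn null arrays. *Sult1a1*, the phenol sulfotransferase, also varied within groups at 7 dpn, from 2.16 to 3.38 in wild-type ovaries. *Cyp27a1* ran from 1.03 (SD 0.02) in newborn null to 2.66 (SD 0.32) in 7 dpn heterozygous ovaries, and a dimmer probe of it stayed between -0.12 and 0.27.

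Several enzymes with a defined steroid or retinoid role stayed near the reference in all groups. Group means were -0.22 to -0.17 for *Hsd3b6*, an adrenal 3beta-hydroxysteroid dehydrogenase, and -0.50 to -0.16 for *Hsd11b1*, which regenerates corticosterone. They were -0.26 to -0.02 for *Hsd17b11*, -0.16 to -0.09 for *Cyp21a1*, the steroid 21-hydroxylase, and -0.16 to -0.05 for *Cyp11b2*, the aldosterone synthase. *Sult1e1*, the estrogen sulfotransferase, was at -0.03 to 0.09. None of these passed in any comparison with all arrays. A flat probe does not by itself show an unchanged transcript, since the second *Hsd3b1* probe also stayed near the reference where the other *Hsd3b1* probes fell.

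The DNA just upstream of the start of the genes was searched for 3 motifs on both strands, in 300 bases around each start (250 before, 50 after) from RefSeq on the GRCm38.p6 build. An entry existed for 67 of the 83 genes, with 76 promoters, and for 32851 promoters in all. The NR5A site CAAGGTCA was in 1.56% of all promoters and in those of none of the 67 genes. The forkhead site TGTTTAC was in 3.65% of all promoters and in 12 of these 76 promoters, which belong to 11 of the 67 genes (*Cyp2c38*, *Cyp2c39*, *Cyp2j5*, *Cyp3a11*, *Cyp3a16*, *Cyp3a41a*, *Cyp3a44*, *Hsd11b1*, *Sult1d1*, *Ugt2b35* and *Ugt2b38*). Many of these are related genes of the *Cyp2c*, *Cyp3a* and *Ugt2b* groups. None of the 11 was called in a genotype comparison, but at most 10.8% of the 83 genes passed in any one of them. With so small a share called, no link between the site and the calls can be read from this. The sterol regulatory element TCACCCCAC was in 0.551% of all promoters and in those of *Cyp2a4* and *Cyp2a5*. The stretches of 250 bases before the start are given for the gene that fell the most and for the androgen enzyme that rose, both on the minus strand and shown 5′ to 3′, with no letter in capitals because none of the motifs is in them.
Hsd3b1, chr3:98859795-98860044: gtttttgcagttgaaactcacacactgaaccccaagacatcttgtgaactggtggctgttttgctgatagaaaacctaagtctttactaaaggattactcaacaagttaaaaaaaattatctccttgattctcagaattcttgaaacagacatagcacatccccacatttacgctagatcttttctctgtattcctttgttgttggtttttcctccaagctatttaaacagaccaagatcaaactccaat
Hsd17b3, chr13:64089202-64089451: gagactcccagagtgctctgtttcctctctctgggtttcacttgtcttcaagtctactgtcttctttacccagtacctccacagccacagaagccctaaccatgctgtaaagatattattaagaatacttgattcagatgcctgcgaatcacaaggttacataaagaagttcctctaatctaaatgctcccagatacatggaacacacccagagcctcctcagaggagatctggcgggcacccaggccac
*Hsd17b1* had no entry.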

How the data were processed

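Per the labels and the file headers, the files deposited by the authors hold processed intensity per spot and channel, after background subtraction and dye balancing by the Agilent software. Here log2 ratios of ovary over reference were normalized by loess (span 0.01) against the mean of all 15 arrays, as in the study's methods but with a local linear in place of a local mean fit. Control spots (2396) and 7 to 100 outlier spots per array were left out. The methods give the 7 dpn RNA as not amplified, whereas the labels name an amplification kit, and the methods give 4 samples at 7 dpn where 6 carry labels, all of them used. For these 6 the labels' age entry reads birth, but their titles were followed. Probes were named through RefSeq (GRCm38.p6) by accession. In the ovary channel 93.2 to 96.5% of probes were well above background and 22 to 87 saturated. Replicates correlated at r from 0.895 to 0.965 (median 0.949), and the number of arrays limits the precision.

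A mean for each of 6 groups was fitted with limma 3.58.1 (R 4.3.3) over all arrays, pooling their spread, and p was adjusted (Benjamini-Hochberg) over all probes tested. The procedure was tested on simulated data with independent noise and shifts larger than most differences called here, which does not cover small differences or a deviating array. A gene past an adjusted p of 0.05 is said to have passed. Genes named are those called in a genotype comparison, an interaction or between the ages, up to 3 nearest to the threshold in each comparison, and a fixed set of steroid and retinoid enzymes. Other genes (other probes, genes called without an array) were named after their values were seen. The genes and lists were chosen with earlier results of these data known. Alternatives covered background correction, centring, span, channel, the authors' series values, dim probes, the replicate number as a block, the arrays fitted, the threshold and the probe.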

Additional observations from a re-analysis of the deposited data

Results flagged for a closer look

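The dimmer probes of 3 genes, which entered no count above, passed in a comparison in which the brightest probe of the same gene did not. The second probe of *Hsd17b3* was 0.63 higher in null than in heterozygous newborn ovaries, where the brightest differed by 0.28. The second probe of *Cyp2a4* was 2.69 higher in 7 dpn than in newborn wild-type ovaries (SE 0.74, adjusted p 0.0487 by limma), but was above background on 1 of the 3 newborn wild-type arrays alone, so that its newborn level is poorly measured and the size is uncertain. The brightest *Cyp2a4* probe went the other way there, by -0.43 (adjusted p 0.297 by limma). The second probe of *Sult5a1*, a sulfotransferase, was 0.30 higher in 7 dpn than in newborn wild-type ovaries (adjusted p 0.0445 by limma), where the brightest differed by 0.20 (adjusted p 0.518). Without newborn wild-type array 1 the *Sult5a1* value was 0.34, and the *Cyp2a4* probe was above background on neither newborn wild-type array.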

How the results depend on the processing

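Over 656 recomputed values of the 26 called differences, 506 kept their direction and their side of the threshold, 148 lost the call and 2 reversed. The calls of *Hsd17b1* and *Cyp4f14* in null ovaries at 7 dpn against both other genotypes, and of *Hsd17b1* between the ages, held in every alternative run. Those of *Hsd3b1* were lost with its flat second probe alone. Of the differences not called, 544 recomputed values were unchanged in call and direction, 33 passed and 6 reversed. With the dimmer probe, *Cyp2f2* turned to -0.13 in null against wild-type at 7 dpn and to 0.024 between the ages. *Cyp27a1* turned to 0.28 in null against heterozygous at 7 dpn, 0.039 in heterozygous against wild-type newborns and -0.032 in the heterozygous interaction, and *Hsd3b1* with its second probe to 0.025 in null against heterozygous newborns and -0.18 in the heterozygous interaction. Leaving out each array, the heterozygous interaction of *Hsd17b1* ran from -0.088 (without newborn wild-type array 1) to 0.59.

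Leaving out each array in turn, the counts of genes passed ran from 3 to 10 in null against wild-type, 0 to 2 in heterozygous against wild-type and 3 to 7 in null against heterozygous ovaries at 7 dpn, from 2 to 7, 0 to 3 and 0 to 2 in the same comparisons at birth, 0 to 3 in the null interaction and 2 to 11 between the ages. With normexp background correction 9 passed in null against heterozygous at 7 dpn, 1 in heterozygous against wild-type newborns and 2 in the null interaction. In the ovary channel alone 4, 3, 1, 0 and 3 passed in null against wild-type and against heterozygous at 7 dpn, the same at birth and between the ages. At a threshold of 0.01 these were 4, 3, 2, 0 and 1, and in the arrays of 1 age 4 and 3 at 7 dpn and 0 in null against heterozygous newborns. That last comparison also gave 0 with median centring, 0 with the authors' series values, and 2 with any named probe, and the series values gave 12 between the ages. The cause was not tested. With 2 or 3 arrays and small log2 differences, calls near the threshold depend on single arrays.

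Correlations of same-numbered deviations ran from -0.17 to 0.14, so that no strong pairing of the arrays by replicate number was seen. At 7 dpn, with 2 arrays in a group, both numbers give the same correlation by construction, and pairing is not excluded. With the replicate number as a block 0 genes passed in null against heterozygous newborns, and no other count moved by over 1.5 times. In heterozygous against wild-type ovaries at 7 dpn the crossed pairing, chosen after seeing the data, gave 0, as did the labelled one. A block by scan day was not run, since each day held the arrays of 1 age.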
